A study of Mus musculus with 24 samples.

Results

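The double difference, on the log2 scale, between the effect of deleting FoxO1 in mouse livers that also lacked PPARα and its effect in livers that kept PPARα was measured on a regular diet. It was computed for each gene as (LFPKO minus LPKO) minus (LFKO minus WT) from the 12 regular-diet libraries of 24 in the series, with 3 libraries in each of 4 groups. Levels were taken as log2(TPM + 1), and fold changes of TPM + 1 differ from those of TPM in low genes. A value of 0 means that the fold changes of TPM + 1 in both single knockouts multiply in the double knockout. A negative value means that the double knockout held less transcript than that product, and a positive value means that it held more. Of 34945 named genes in the table, 10551 reached a mean of 1 TPM over all libraries and were tested.

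LFPKO livers carried the genotype FoxO1-/-; PPARα-/-, LFKO livers FoxO1-/- and LPKO livers PPARα-/-. The knockouts were made with Albumin-Cre, a transgene that is active in hepatocytes, so other liver cells keep both genes. WT livers came from FoxO1lox/lox; PPARαlox/lox mice for which no Cre is stated. A difference of WT from all knockouts alike does not cancel in the double difference and enters it with the opposite sign. By this design it cannot be told apart from a departure of both deletions from their product. The 4 groups shared the regular diet (RD) and a 4 h fast. The same 4 genotypes after 3 weeks of high-fat diet (HFD) gave 12 further libraries that the regular-diet double difference does not use. Replicates are numbered in the labels, but nothing states whether they came from different animals. The p-values therefore cover the variation among these libraries, which may be technical.

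FoxO1 is a transcription factor that insulin signalling removes from the nucleus. In fasted liver it is known for inducing genes of glucose production and of insulin sensitivity. PPARα is a nuclear receptor that binds fatty acids and pairs with RXR. It is known as the main activator of fatty acid oxidation and of the hormone gene Fgf21 in fasted liver. Both factors act in hepatocytes, where growth hormone sets the difference between male and female patterns of cytochrome P450 and major urinary protein genes.

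Expression is given in TPM, a scale of transcript share that is corrected for transcript length and keeps no record of sequencing depth. The number of genes at 1 TPM or more was 10285 to 10937 per regular-diet library, and the correlation across genes between libraries of a group was 0.98 to 0.991. WT replicate 1 stood apart from the other regular-diet libraries on the third principal component, with a score of 24.1, followed by LFPKO replicate 3 with 15.8. That component held 9.83% of the variance. Y-linked Ddx3y lay between 15.4 and 21.5 TPM in the 12 regular-diet libraries, so none of them lacked it. In bulk liver, fewer cells of a type and less RNA per cell cannot be told apart.

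Foxo1 (3, 52268337 to 52350109 in GRCm38.p6) checked the FoxO1 labels. It had 0.317, 0.398 and 0.388 TPM in LFPKO and 0.407, 0.308 and 0.484 TPM in LFKO, against 4.22, 4.3 and 4.71 TPM in LPKO and 4.54, 4.14 and 4.25 TPM in WT. Groups with and without FoxO1 did not overlap, and its double difference was -0.06 ± 0.20 (SE). Ppara had 62.8, 74.1 and 59.2 TPM in LFPKO, 61.4, 61 and 61.3 TPM in LFKO, 70.1, 64.6 and 63.4 TPM in LPKO and 54.8, 48.4 and 56.1 TPM in WT. The summed gene level of Ppara was therefore not lower in livers labelled as lacking it. A gene-level TPM cannot show a deleted exon, so this level checks nothing, and directions below refer to the libraries labelled LPKO and LFPKO.

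Few genes passed the test for a departure from the product of both deletions. The double difference was called in 27 genes, 0.256% of those tested, at a limma adjusted p under 0.05: 8 were higher (0.0758%) and 19 lower (0.18%). Without adjustment 740 genes, or 7.01%, had p under 0.05. The median over all tested genes was -0.07 with a median SE of 0.22, and 63.7% of genes lay below 0. The count depended on single libraries. It was 8 without LPKO replicate 3, 10 without LFKO replicate 2, 12 without WT replicate 3, 13 without WT replicate 2, LFKO replicate 3 or LFPKO replicate 2, and 16 without LFPKO replicate 1 or 3. Without WT replicate 1 it was 25. Leaving out 1 library in turn always kept the call of 8 genes, namely Aldh1b1, Cyp2c69, Nat8, Tcf24, Gm20075, Gm47283, Gm7336 and Gm8116. Other calls were less stable. Those of Coa4, H2ac19 and Gm5905 held in 1 of 12 such fits, and those of Aqp11, Dct, Nox4 and Gm14586 in 2. Jun and Gpx7 were called in 3 of them and Sucnr1 in 4, and the remaining genes in 5 to 9. All 27 double differences kept their sign in those 12 fits. The division into higher and lower genes moved with scaling, with 13 higher and 20 lower after median-of-ratios scaling and 9 higher and 11 lower without Mup and mitochondrial transcripts.

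**Figure D1:**
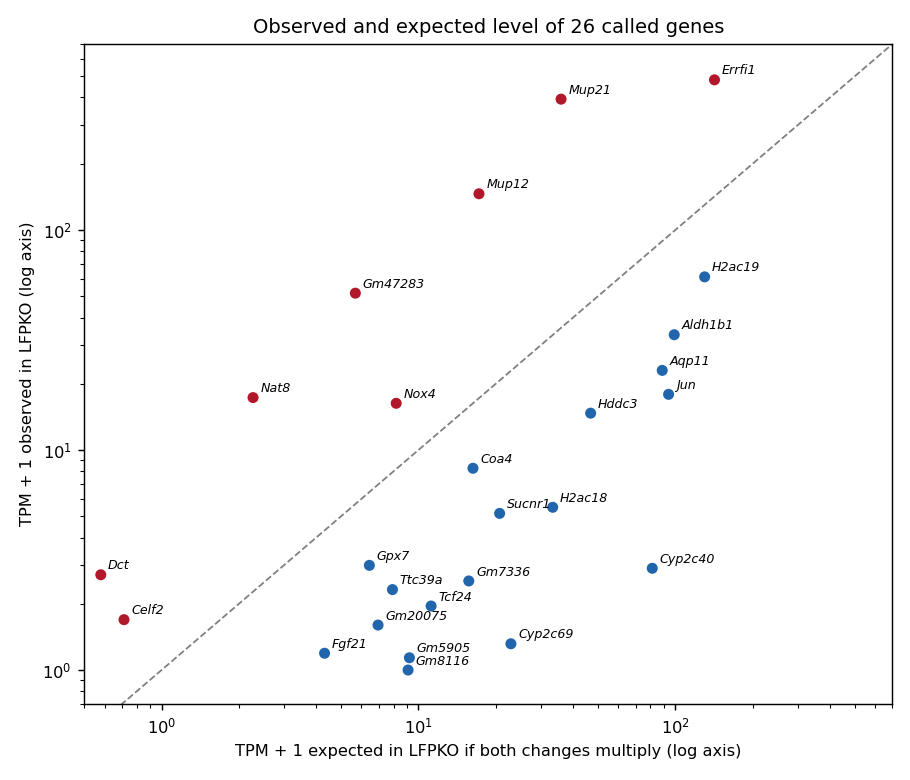
Observed level in LFPKO (vertical axis, TPM + 1, log axis) against the level expected there if the fold changes of TPM + 1 in LFKO and LPKO multiply (horizontal axis, TPM + 1, log axis), for 26 of the 27 called genes. Gm14586, listed at 0 in all WT libraries, is left out. The 8 red genes lie above the dashed line of equality and the 18 blue genes below it, with Mup21 at 392 TPM observed against 34.9 expected and Cyp2c40 at 1.90 against 80.3.

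Which group stood out differed between the called genes. With a log2 change of at least 1 against WT counted as moved, 12 genes had moved in LFKO alone, 3 in LFKO and LPKO, 4 in all 3 knockouts, 2 in LFKO and LFPKO, 2 in LFPKO alone, 1 in LPKO alone and 3 in none. LFKO was thus among the groups that had moved for 21 of the 27 genes. Over all tested genes, a change of that size against WT occurred in 1.77% for LFKO, 2.63% for LPKO and 3% for LFPKO. At a limma adjusted p under 0.05, LFPKO against WT called 7.45% of all tested genes. These classes describe the libraries that gave the call and are not a separate test.

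Among called genes other than the pseudogene Gm14586, the largest negative double differences belonged to a pair of neighbouring cytochrome P450 genes of the Cyp2c family, which in mouse liver are known to be more expressed in females. Cyp2c40 (19, 39767073 to 39812814, minus strand) is known for oxidising arachidonic acid. Cyp2c69 (19, 39842660 to 39886769, minus strand) lies beside it. Because both moved together, the bases upstream of their annotated starts are shown, together with those of Sucnr1 (3, 60081869 to 60087566, plus strand), a called gene with another pattern whose promoter holds the same 7 letters. The sequences are from RefSeq, build GRCm38.p6, 250 bases up to the base before the start, written 5′ to 3′ on the gene's strand. Capitals mark TTGTTTT, which is the core of the insulin response element, AAAACAA, read on the other strand.
Cyp2c40 chr19:39812815-39813064: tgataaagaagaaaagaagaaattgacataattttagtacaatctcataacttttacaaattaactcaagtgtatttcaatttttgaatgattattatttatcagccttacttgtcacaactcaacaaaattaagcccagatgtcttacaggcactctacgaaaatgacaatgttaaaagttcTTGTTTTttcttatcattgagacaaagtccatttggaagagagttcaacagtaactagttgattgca
Cyp2c69 chr19:39886770-39887019: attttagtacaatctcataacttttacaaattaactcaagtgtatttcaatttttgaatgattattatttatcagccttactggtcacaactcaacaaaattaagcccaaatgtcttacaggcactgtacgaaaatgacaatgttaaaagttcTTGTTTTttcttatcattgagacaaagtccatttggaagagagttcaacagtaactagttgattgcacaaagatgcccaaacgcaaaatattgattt
Sucnr1 chr3:60081619-60081868: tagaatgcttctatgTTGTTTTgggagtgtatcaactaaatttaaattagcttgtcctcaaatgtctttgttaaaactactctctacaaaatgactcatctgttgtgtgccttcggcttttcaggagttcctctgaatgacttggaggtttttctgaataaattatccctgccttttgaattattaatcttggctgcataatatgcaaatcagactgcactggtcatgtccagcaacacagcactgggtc
Aligned with an offset of 30 bases, the windows of Cyp2c40 and Cyp2c69 were identical in 217 of 220 columns (98.6%), so their match is the same stretch seen from 2 start sites, at -67 and -97. In Sucnr1 the match began at -235. In the 300 bases from 250 before to 50 after the start, AAAACAA on either strand occurred in 3 of 13 genes called lower with a promoter in the reference (23.1%), in 0 of 6 called higher and in 6.13% of the promoters of 8255 tested genes. The FoxO site GTAAACA occurred in 0 of these 19 promoters and in 2.73% of all, and the DR1 repeat that PPARα binds in 0 of 19 and 0.0485%. These are matches of letters within a short window, and binding was not measured.

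Cyp2c40 was high in LFKO only. It had 3.94, 2.1 and 0.592 TPM in LFPKO, 150, 54.7 and 141 TPM in LFKO, 1.03, 5.91 and 6.12 TPM in LPKO, and 1.45, 10.5 and 6.83 TPM in WT. All 3 LFKO libraries lay above the other 9, which overlapped. The double difference was -4.81 ± 0.86 (SE, n = 3 per group; limma adjusted p = 0.0192). Cyp2c69 followed the same pattern, with 0.373, 0.342 and 0.237 TPM in LFPKO, 53.1, 16 and 40.6 TPM in LFKO, 0.232, 1.46 and 1.15 TPM in LPKO, and 0.49, 3.07 and 2.41 TPM in WT. Its double difference was -4.12 ± 0.51 (limma adjusted p = 0.000357), and it was 1 of 5 genes called under every alternative in which they were tested. Annotated transcripts of Cyp2c40 share 72.6% of their 31-base windows with other genes, and 46.6% with Cyp2c69. Those of Cyp2c69 share 64.9%, and 57.7% with Cyp2c40, so reads could be split between both genes or with further ones. The summed TPM of both genes was 70.6 to 203 in LFKO and at most 13.6 in any other regular-diet library, which the division between both genes does not affect. A division with further genes could still affect that sum.

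Other Cyp2a, Cyp2b and Cyp2c genes did not all follow this pattern. Of 17 others tested, 0 were called in either direction and 14 lay below 0. Their median double difference was -0.47, or -0.53 for all 19 with the called pair, beside -0.07 over all genes, of which 63.7% lay below 0. Cyp2b9, a steroid-hydroxylating enzyme of female liver, had 0.0986, 2.32 and 0.358 TPM in LFPKO, 122, 80.2 and 50.1 TPM in LFKO, 0.513, 0.205 and 0.3 TPM in LPKO, and 1.5, 1.36 and 2.85 TPM in WT. Its double difference of -4.46 ± 0.96 missed the threshold (limma adjusted p = 0.0558). Cyp2a4 differed from these in that LPKO and LFPKO were high as well. It had 72.3, 532 and 204 TPM in LFPKO, 233, 232 and 227 TPM in LFKO, 130, 59.3 and 150 TPM in LPKO, and at most 0.202 TPM in WT, with a double difference of -6.71 ± 1.65 (limma adjusted p = 0.129). Cyp2a4 shares 58.1% of its windows with other genes, mostly Cyp2a5 (55.9%), so its level is uncertain. Among abundant members, Cyp2c29 averaged 1021 TPM in LFPKO, 1295 TPM in LFKO, 989 TPM in LPKO and 1304 TPM in WT, with a double difference of 0.05 ± 0.41.

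Among 28 genes that differ towards females in mouse liver, 17 were tested and 15 of these had a double difference below 0. The median was -0.93, with 0 called higher and 2, Cyp2c40 and Cyp2c69, called lower. Among all tested genes 63.7% lay below 0 and 0.18% were called lower. The summed TPM of the whole list was 162 to 683 in LFPKO, 655 to 801 in LFKO, 166 to 243 in LPKO and 113 to 125 in WT. Cyp2a4, whose level is uncertain, is part of these sums. Slc22a26, an organic anion transporter gene, had 0.206, 0.438 and 0.355 TPM in LFPKO, 6.37, 3.7 and 7.88 TPM in LFKO, 0.155, 0.332 and 0.461 TPM in LPKO, and 0.396, 0.415 and 0.652 TPM in WT (-2.16 ± 0.49, limma adjusted p = 0.071). Abcd2, a peroxisomal transporter of very long fatty acids, had 16.3 to 21.1 TPM in LFKO and at most 4.52 TPM elsewhere, with a double difference of -1.49 ± 0.53 (limma adjusted p = 0.473).

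Genes of the male pattern, summed over the list, were low in LFKO and not in LFPKO. All 25 listed genes were tested, of which 21 lay above 0, with a median of 0.65. The lowest member was Selenbp2, at -3.36 ± 1.52 (limma adjusted p = 0.673). Mup21 and Mup12 were called higher and 0 members lower, while 14 members had an unadjusted p under 0.05. Among all tested genes 36.3% lay above 0, 0.0758% were called higher and 7.01% had an unadjusted limma p under 0.05. The summed TPM of the list was 59100 to 75300 in LFPKO, 19700 to 22500 in LFKO, 63700 to 88700 in LPKO and 45900 to 56300 in WT, so LFKO did not overlap with any other group. Major urinary proteins are lipocalins that carry pheromones into urine and are among the most abundant liver transcripts. Of 20 tested Mup genes, 17 lay above 0, and the median double difference was 1.02. The Mup genes together held 13.2% ± 0.689 of all TPM in LFPKO, 5.98% ± 0.907 in LFKO, 11.8% ± 2.32 in LPKO and 9.44% ± 1.99 in WT (SD, n = 3 each).

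Among called genes Mup21 had the largest positive double difference, 3.45 ± 0.63 (limma adjusted p = 0.0203). It had 553, 297 and 365 TPM in LFPKO, 34.6, 46.5 and 75.5 TPM in LFKO, 417, 593 and 623 TPM in LPKO, and 619, 1050 and 663 TPM in WT. LFKO lay below every other library, LFPKO overlapped with LPKO, and LFPKO lay below WT. Mup12 had 146, 184 and 114 TPM in LFPKO, 69.2, 39.5 and 51.4 TPM in LFKO, 114, 270 and 97.4 TPM in LPKO, and 439, 444 and 461 TPM in WT, with a double difference of 3.09 ± 0.54 (limma adjusted p = 0.0164). It fell in all 3 knockouts, and LFPKO overlapped with LPKO. Mup12 shares 92.1% of its windows with other genes, mostly Mup1, and the summed TPM of Mup12 and Mup1 gave a double difference of 2.95 ± 0.60.

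Mup7 had the largest positive value on the male-pattern list without being called. It had 15500, 11700 and 10400 TPM in LFPKO and 545, 309 and 536 TPM in LFKO, against 10300, 26400 and 9280 TPM in LPKO and 6460, 11900 and 10300 TPM in WT (4.22 ± 1.12, limma adjusted p = 0.203). Mup1 missed the threshold by less (2.90 ± 0.63, limma adjusted p = 0.0626). Mup7 shares 90% of its windows with other genes, mostly Mup1, and Mup1 shares 70.2% of its own. Reads could therefore be split among Mup genes, which makes the level of each uncertain. Not every male-pattern gene returned towards WT in LFPKO. Elovl3, a fatty acid elongase, had 57.3, 45.3 and 36.1 TPM in LFPKO, 44.3, 41.2 and 46.9 TPM in LFKO and 47.9, 56.1 and 42.8 TPM in LPKO, against 232, 130 and 126 TPM in WT, so all 3 knockouts overlapped with each other and lay below WT (1.71 ± 0.46, limma adjusted p = 0.206). Cyp7b1, an oxysterol hydroxylase, had 98.6, 59.7 and 36 TPM in LFPKO and 23.6, 17.4 and 13.9 TPM in LFKO, against 83.6, 141 and 114 TPM in LPKO and 93.8, 173 and 130 TPM in WT (1.90 ± 0.72, limma adjusted p = 0.548). Of 19 tested genes of the growth hormone pathway, 0 were called in either direction and the median was 0.06.

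**Figure D2:**
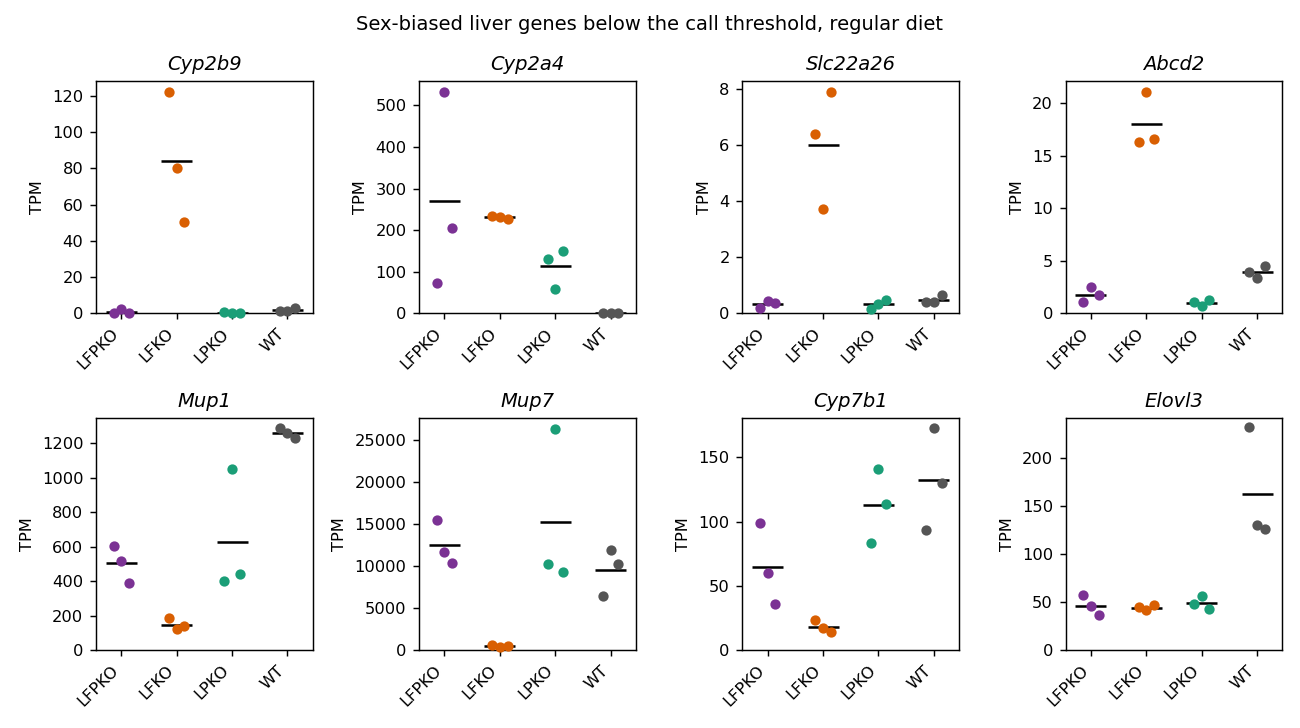
TPM in each regular-diet library (points, 3 per group) and group mean (line) of 8 sex-biased liver genes whose double difference was not called, with groups ordered LFPKO, LFKO, LPKO, WT. The top row shows genes of the female pattern, where LFKO stands above WT (Cyp2b9 50.1 to 122 TPM against 1.36 to 2.85), and the bottom row genes of the male pattern, where it stands below WT (Mup7 309 to 545 TPM against 6460 to 11900).

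Fgf21, the fasting hormone that PPARα is known to induce, was high in LFKO and near 0 wherever PPARα was deleted. It had 0.215, 0.395 and 0 TPM in LFPKO, 6.15, 11.6 and 5.93 TPM in LFKO, 0.268, 0.0449 and 0.141 TPM in LPKO, and 2.51, 0.628 and 1.06 TPM in WT. LFPKO and LPKO overlapped, WT lay above both, and LFKO lay above WT. It rose in LFKO (log2 change 1.91) and fell in LPKO (-0.99) and LFPKO (-0.93), and the double difference was -1.85 ± 0.35 (limma adjusted p = 0.0229). With a pseudocount of 0.1 TPM the double difference was -2.46 and was not called (limma adjusted p = 0.552). Fgf21 was the only called member of 33 tested PPARα targets outside the oxidation pathways, whose median was -0.23. It also stood on a list of 22 stress-response genes as its only called member.

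The enzymes of fatty acid oxidation showed small departures, none of which was called. For 24 mitochondrial genes the median double difference was -0.26 with 20 below 0, for 30 peroxisomal genes it was -0.25 with 27 below 0, and for 7 ketone body genes it was -0.30. Over all tested genes 63.7% lay below 0, with a median of -0.07. Rescaling without Mup and mitochondrial transcripts moved the medians to -0.13 for the mitochondrial, -0.11 for the peroxisomal and -0.13 for the ketone body genes. All genes then lay at 0.05, so these lists stayed below the median of all genes. Whether they depart from all genes was not tested. Abcd3, a peroxisomal fatty acid transporter, had the smallest p of both oxidation lists, with 171, 171 and 164 TPM in LFPKO, 341, 298 and 348 TPM in LFKO, 165, 148 and 175 TPM in LPKO, and 213, 226 and 221 TPM in WT (-0.52 ± 0.17, limma adjusted p = 0.39). LFPKO and LPKO overlapped there, and LFKO was the highest group. Decr2, a reductase for unsaturated fatty acids, had 40.1, 33.9 and 36.5 TPM in LFPKO, 158, 158 and 159 TPM in LFKO, 34.4, 27.1 and 35.2 TPM in LPKO, and 108, 117 and 113 TPM in WT (-0.30 ± 0.21, limma adjusted p = 0.851). Among 28 FoxO1 target genes and 29 genes of glucose metabolism 0 were called, with medians of -0.09 and -0.06.

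A further 3 called genes were low in the double knockout and in neither single knockout. Sucnr1, the cell surface receptor for succinate, had 5.24, 3.43 and 3.95 TPM in LFPKO, 20.8, 15.6 and 17.8 TPM in LFKO, 19.4, 16.4 and 24.3 TPM in LPKO, and 11.1, 23.6 and 22 TPM in WT. LFPKO lay below the other 9 libraries, which overlapped. It fell in LFPKO against WT (-1.88), LPKO (-2.01) and LFKO (-1.88), with a double difference of -2.01 ± 0.39 (limma adjusted p = 0.0241). Its start lies 7.81 Mb from that of Foxo1 on the same chromosome. H2ac18, a histone H2A gene, had 7.26, 6.63 and 1.63 TPM in LFPKO, 14.9, 22.2 and 18.1 TPM in LFKO, 15.1, 18.7 and 20.7 TPM in LPKO, and 14.1, 9.01 and 7.72 TPM in WT (-2.60 ± 0.49, limma adjusted p = 0.0229). LFPKO was again the lowest group, and both single knockouts lay above WT. The neighbouring H2ac19 (-1.09 ± 0.23, limma adjusted p = 0.0485) averaged 60.3 TPM in LFPKO, 73.5 TPM in LFKO, 106 TPM in LPKO and 58.9 TPM in WT. All windows of H2ac19 and 89.7% of those of H2ac18 occur in other annotated genes, so their levels are uncertain. Most histone transcripts end without a poly(A) tail, and the libraries were made with an mRNA kit. Gm7336 completed the 3 and is described with the pseudogenes.

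**Figure D3:**
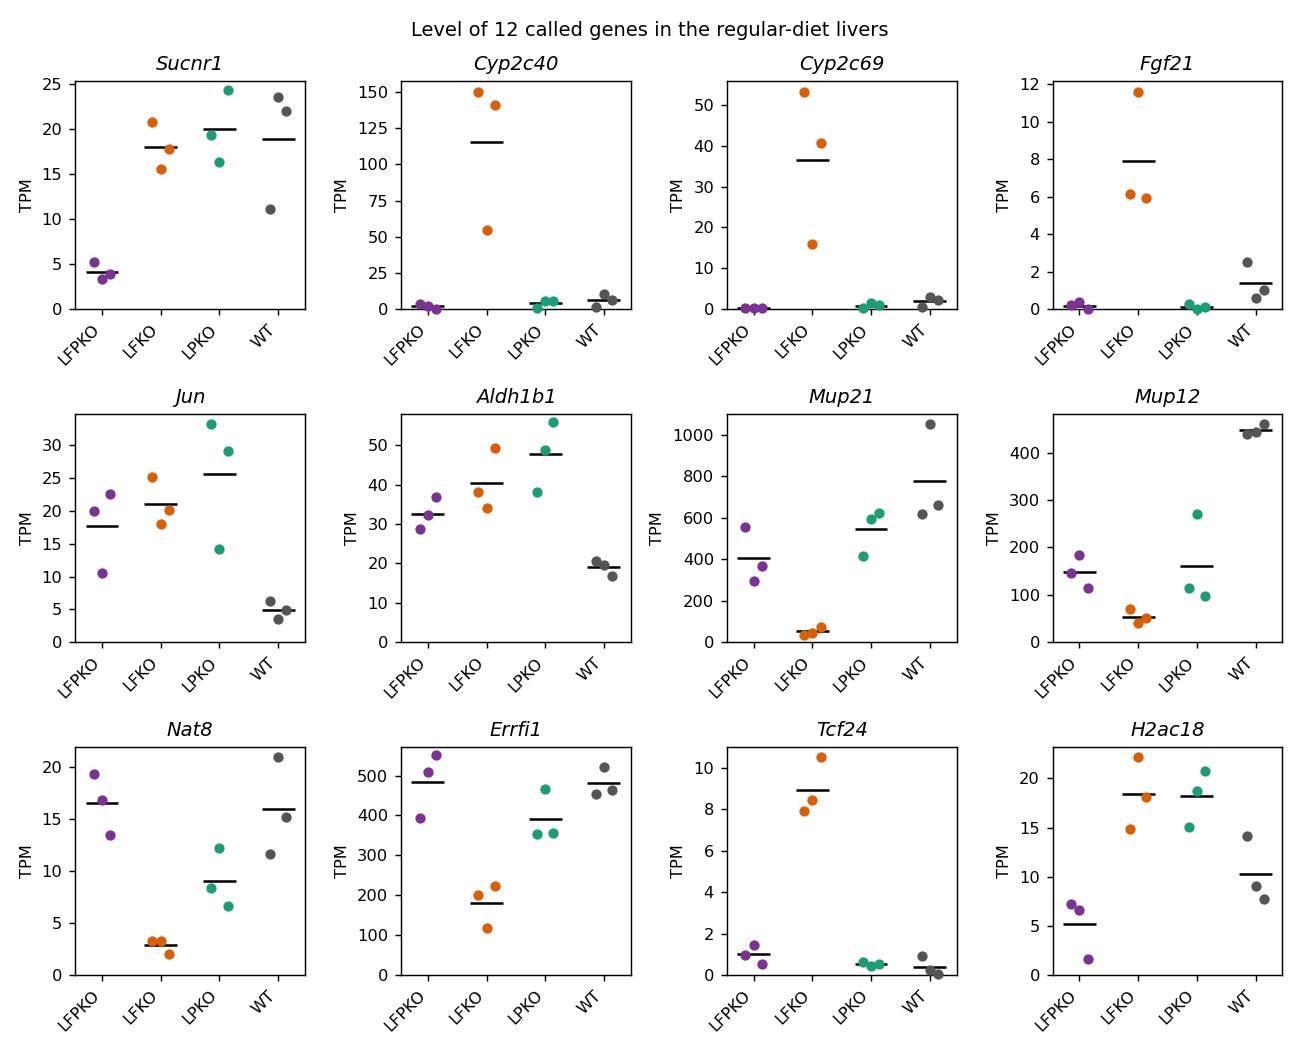
TPM in each regular-diet library (points, 3 per group) and group mean (line) of 12 called genes, with groups ordered LFPKO, LFKO, LPKO, WT. Sucnr1 and H2ac18 are lowest in LFPKO, Cyp2c40, Cyp2c69, Fgf21 and Tcf24 are highest in LFKO, Mup21, Mup12, Nat8 and Errfi1 are lowest in LFKO, and Jun and Aldh1b1 are lowest in WT.

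A further group of called genes moved in both single knockouts and no further in the double knockout. For such genes a difference between WT and every knockout cannot be told apart from a departure of both deletions from their product. Jun, a subunit of the AP-1 transcription factor and an immediate early gene, had 20, 10.5 and 22.6 TPM in LFPKO, 25.1, 18 and 20.1 TPM in LFKO, 33.3, 14.2 and 29.2 TPM in LPKO, and 6.29, 3.53 and 4.98 TPM in WT. The 3 knockouts overlapped with each other and lay above WT, and the double difference was -2.40 ± 0.49 (limma adjusted p = 0.0338). Aldh1b1, a mitochondrial aldehyde dehydrogenase, had 28.7, 32.2 and 36.8 TPM in LFPKO, 38.2, 34.1 and 49.2 TPM in LFKO, 38.2, 48.8 and 56 TPM in LPKO, and 20.5, 19.7 and 16.8 TPM in WT. LFPKO lay below LPKO and above WT, and the double difference was -1.57 ± 0.24 (limma adjusted p = 0.00424). Aldh1b1 was called under every alternative in which it was tested.

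Ttc39a and Celf2 also moved in both single knockouts and no further in LFPKO. Ttc39a averaged 1.36 TPM in LFPKO, 2.80 TPM in LFKO, 1.74 TPM in LPKO and 0.316 TPM in WT (-1.77 ± 0.33, limma adjusted p = 0.0229). Celf2, an RNA-binding regulator of splicing, moved the other way, with 0.46 to 0.831 TPM in LFPKO, 0.493 to 0.859 TPM in LFKO and 0.494 to 0.712 TPM in LPKO, against 2.57 to 2.91 TPM in WT (1.25 ± 0.24, limma adjusted p = 0.0237). Coa4, an assembly factor of cytochrome oxidase, had 6.72 to 7.8 TPM in LFPKO, 9.45 to 11 TPM in LFKO, 7.1 to 10 TPM in LPKO and 4.49 to 5.84 TPM in WT (-0.98 ± 0.21, limma adjusted p = 0.0485). Its log2 changes against WT, 0.85 in LFKO, 0.55 in LPKO and 0.42 in LFPKO, were below the size counted as moved. The call of Coa4 held in 1 of 12 fits that left out a library. Gpx7, a peroxidase of the endoplasmic reticulum, had another pattern. It rose in LPKO (log2 change 1.29) and was not called in LFKO (0.41, limma adjusted p = 0.217 against WT). It was highest in LPKO, at 3.25 to 4.75 TPM, against 1.84 to 2.14 TPM in LFPKO, 1.37 to 1.84 TPM in LFKO and 0.67 to 1.55 TPM in WT (-1.11 ± 0.22, limma adjusted p = 0.0324).

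Other immediate early genes had the same sign as Jun without being called. Of 12 tested, 10 lay below 0 and the median was -0.94, with 1 called lower and 0 higher. Among all tested genes 63.7% lay below 0 and 0.18% were called lower. Junb had 19.1, 11.3 and 12.2 TPM in LFPKO, 44.4, 39.6 and 44.5 TPM in LFKO, 39.1, 18 and 31.6 TPM in LPKO, and 21.3, 13.6 and 13.6 TPM in WT (-2.36 ± 0.55, limma adjusted p = 0.0905). LFPKO overlapped with WT there, unlike for Jun. Egr1 (-2.57 ± 0.76, limma adjusted p = 0.287) and Dusp1 (-1.64 ± 0.49, limma adjusted p = 0.289) had unadjusted p under 0.05. The summed level of the list was 120 to 182 TPM in LFPKO, 200 to 253 TPM in LFKO, 169 to 247 TPM in LPKO and 111 to 135 TPM in WT.

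Outside the Mup family, 4 annotated genes were lowest in LFKO and higher in LFPKO. Nat8, an N-acetyltransferase of cysteine conjugates, had 19.3, 16.8 and 13.5 TPM in LFPKO, 3.27, 3.28 and 2.01 TPM in LFKO, 8.39, 12.2 and 6.64 TPM in LPKO, and 11.6, 21 and 15.2 TPM in WT. LFKO lay below every other library, LFPKO overlapped with WT and lay above LPKO, and the double difference was 2.93 ± 0.42 (limma adjusted p = 0.00212). Its neighbour Nat8f5 had 30.5, 22.2 and 25.6 TPM in LFPKO, 1.32, 1.68 and 1.56 TPM in LFKO, 13.3, 16.2 and 6.93 TPM in LPKO, and 5.55, 7.33 and 4.15 TPM in WT (2.49 ± 0.67, limma adjusted p = 0.208). For Nat8f5, LFPKO lay above and LFKO below all other libraries, while LPKO and WT overlapped. The more abundant Nat8f1 and Nat8f2 had double differences of -0.03 ± 0.23 and 0.17 ± 0.18.

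Errfi1, a feedback inhibitor of the EGF receptor, had 394, 509 and 551 TPM in LFPKO, 200, 119 and 223 TPM in LFKO, 353, 466 and 357 TPM in LPKO, and 454, 522 and 465 TPM in WT. LFKO alone was separate from the other groups (1.76 ± 0.33, limma adjusted p = 0.0229). Nox4, an NADPH oxidase that makes hydrogen peroxide, had 16, 15.7 and 14.4 TPM in LFPKO, 11.8, 9.05 and 9.11 TPM in LFKO, 17.4, 16.3 and 18.1 TPM in LPKO, and 20.4, 23.4 and 26.6 TPM in WT. The order of the groups was WT, LPKO, LFPKO, LFKO with no overlap (0.996 ± 0.20, limma adjusted p = 0.0298). Dct, an enzyme of melanin synthesis, was weakly expressed, with 1.7, 1.67 and 1.77 TPM in LFPKO, 0.0339, 0 and 0.0445 TPM in LFKO, 0.827, 0 and 0.0339 TPM in LPKO, and 0.0521, 2.88 and 1.56 TPM in WT (2.23 ± 0.44, limma adjusted p = 0.0298). Its WT libraries spanned nearly the whole range of the gene.

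Besides Fgf21 and the Cyp2c pair, 3 annotated genes rose in LFKO and were lower in LFPKO. Tcf24, a basic helix-loop-helix factor, had 0.988, 1.45 and 0.533 TPM in LFPKO, 7.91, 8.45 and 10.5 TPM in LFKO, 0.608, 0.439 and 0.547 TPM in LPKO, and 0.909, 0.225 and 0.0464 TPM in WT. LFKO lay far above the rest, and the double difference was -2.52 ± 0.30 (limma adjusted p = 0.000246). Hddc3, a phosphatase of NADPH, had 15.2, 8.76 and 19.1 TPM in LFPKO, 32.8, 28.7 and 35 TPM in LFKO, 17.2, 15.2 and 14.9 TPM in LPKO, and 11.9, 9.87 and 10.8 TPM in WT (-1.67 ± 0.31, limma adjusted p = 0.0204). Aqp11, an intracellular water channel, had 19.7, 23.7 and 22.9 TPM in LFPKO, 40.7, 45.9 and 45.6 TPM in LFKO, 21.9, 40.9 and 57.9 TPM in LPKO, and 18.3, 20 and 17.2 TPM in WT. Its LPKO libraries spread over the range of LFKO and LFPKO (-1.95 ± 0.37, limma adjusted p = 0.0237).

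Among the called genes, 6 have predicted names. Of these, 5 are annotated as pseudogenes and share sequence with other genes, so that assignment of reads can move level between them. Gm14586 shares 83.6% of its windows with other genes. It was listed at 114, 0 and 127 TPM in LFPKO, 240, 279 and 254 TPM in LFKO, 111, 90.8 and 114 TPM in LPKO, and 0 in all 3 WT libraries. LFKO lay above every other library, and 1 LFPKO library was at 0 like those of WT. Its double difference was -10.12 ± 2.14 (limma adjusted p = 0.0485), and a listed 0 of such a gene can be a failed estimate, so its level is uncertain.

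Gm8116 was listed at 7.92, 8.47 and 7.95 TPM in LFKO and at 0 in all other regular-diet libraries (-3.19 ± 0.13). The limma adjusted p was 1.37e-12, the smallest of all genes. It shares 95% of its windows with other genes, mostly Carnmt1, whose mean was 13.2 TPM in LFPKO, 8.46 TPM in LFKO, 12.9 TPM in LPKO and 11.4 TPM in WT. The sum of both still had a double difference of -0.49 ± 0.15. Gm5905 (-3.02 ± 0.58) shares 56.4% of its windows with Rps9, Gm7336 (-2.63 ± 0.43) 97.3% with Gapdh and Gm20075 (-2.12 ± 0.30) 90.4% with Btf3l4. Gm7336 had 1.38 to 1.8 TPM in LFPKO, 6.77 to 10.4 TPM in LFKO, 6.88 to 9.36 TPM in LPKO and 3.4 to 5.35 TPM in WT, beside mean Gapdh levels of 1401 TPM in LFPKO, 1440 TPM in LFKO, 1398 TPM in LPKO and 1184 TPM in WT. The double difference of the summed TPM was -0.03 ± 0.19 for Gm5905 with Rps9, -0.29 ± 0.24 for Gm7336 with Gapdh and -0.27 ± 0.17 for Gm20075 with Btf3l4. The pairs were chosen after the values of the called genes were seen. Gm47283, which GENCODE M21 places on Y, had 45.8 to 58.5 TPM in LFPKO, 13.1 to 20.1 TPM in LFKO, 18.7 to 37.8 TPM in LPKO and 45.8 to 125 TPM in WT (3.18 ± 0.53, limma adjusted p = 0.0101).

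The double difference can also be read as the effect of FoxO1 deletion without PPARα beside its effect with PPARα, 2 comparisons that share no library. LFKO against WT called 113 genes higher (1.07%) and 63 lower (0.597%), in all 1.67% of those tested. LFPKO against LPKO called 2 higher (0.019%) and 11 lower (0.104%), in all 0.123%. Of the 113 genes that rose in LFKO, the median log2 change was 0.85 in LFKO and 0.10 in LFPKO against LPKO, and 2 were called there with the same sign. Of the 63 that fell in LFKO, the medians were -1.37 and -0.26, and 5 were called. Choosing genes on one comparison favours a larger size in it, and of the 13 genes called in LFPKO against LPKO, 12 were smaller in LFKO. The 7 genes called in both were Foxo1, Eif4ebp3, Fmn2, Mme and Tbc1d30, which fell, and Gm34303 and Slc10a2, which rose. They are 3.98% of the 176 and 53.8% of the 13. Eif4ebp3, a translation repressor, changed by -2.03 in LFPKO against LPKO and by -3.20 in LFKO. Slc10a2, a bile acid transporter, changed by 1.49 and 1.26. None of these 7 was called for the double difference.

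The same double difference can be read as the effect of PPARα deletion without FoxO1 beside its effect with FoxO1, which for each gene gives the identical value. LPKO against WT called 371 genes higher (3.52%) and 246 lower (2.33%), in all 5.85%. LFPKO against LFKO, which uses the other 6 libraries, called 206 higher (1.95%) and 330 lower (3.13%), in all 5.08%. For the 246 genes that fell in LPKO the median change was -0.93 there and -0.85 in LFPKO against LFKO, and 161 of them (65.4%) were called with the same sign. For the 371 that rose the medians were 0.72 and 0.36, and 93 (25.1%) were called with the same sign. Opposite calls numbered 3. Of the genes called for LPKO, 12 were called for the double difference. The difference in size between genes that rose and fell was not tested, and nor was that between these genes and the ones chosen on FoxO1 deletion.

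**Figure D4:**
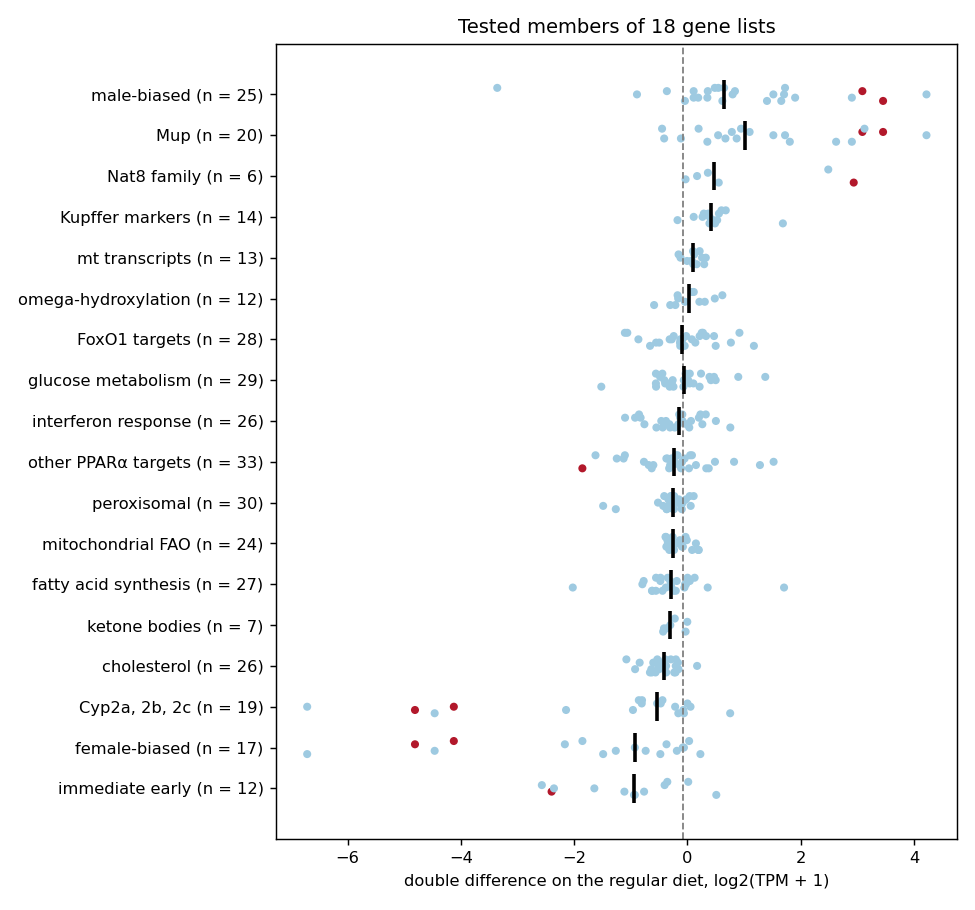
Double difference on the regular diet (horizontal axis, log2(TPM + 1)) of each tested member (points, red where called) of 18 gene lists, with the list median (black bar) and the median of all tested genes (dashed line, -0.07). The medians run between -0.94 for immediate early genes and 1.02 for Mup genes, and the lists of oxidation, cholesterol and glucose genes hold no called member.

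Markers of other liver cell types were not called, and 1 hepatocyte-zone list held a called gene, Aldh1b1, on the periportal list. Of 14 Kupffer cell markers, 13 had a double difference above 0, with a median of 0.42, beside 36.3% of all tested genes above 0. Mean levels were below WT for 13 of 14 in LFPKO, 13 of 14 in LFKO and 14 of 14 in LPKO, the exception in LFPKO and LFKO being the iron exporter gene Slc40a1. Marco, a scavenger receptor gene, averaged 1.85 TPM in LFPKO, 0.865 TPM in LFKO, 2.28 TPM in LPKO and 6.65 TPM in WT. Slc40a1 averaged 74.2 TPM in LFPKO, 93.5 TPM in LFKO, 53.8 TPM in LPKO and 61.6 TPM in WT. Without it the mean levels summed to 124 TPM in LFPKO, 167 TPM in LFKO, 114 TPM in LPKO and 214 TPM in WT. With it the summed TPM was 156 to 240 in LFPKO, 224 to 284 in LFKO, 144 to 196 in LPKO and 216 to 346 in WT. The part of Kupffer cells in the called genes was not tested. Of 12 endothelial markers 8 lay below 0, with a median of -0.06, and of 11 tested stellate cell markers 5 lay below 0, with a median of 0.02. The summed TPM of the hepatocyte markers was 103000 to 110000 in LFKO and 70300 to 84900 in the other 3 groups. Among them Alb alone averaged 37100 TPM in LFPKO, 65600 TPM in LFKO, 33200 TPM in LPKO and 45400 TPM in WT. The median log2 change of these markers in LFKO against WT was 0.04, and their median double difference was -0.05. The mitochondrial-genome transcripts had a median of 0.10, and 0 of 13 were called.

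On the high-fat diet the double difference was called in 1179 genes (11.2%), 70 higher (0.663%) and 1109 lower (10.5%), with a median of -0.24 over all tested genes. That median was 0.01 after median-of-ratios scaling and 0.10 after leaving out Mup and mitochondrial transcripts, and the calls were then 231 higher and 396 lower, and 337 higher and 283 lower. The count also depended on single libraries, with 2611 without LFKO replicate 1 and 431 without WT replicate 2. Of the 27 genes called on the regular diet, 25 had the same sign on the high-fat diet, 19 of 19 lower and 6 of 8 higher ones. Of all tested genes 78.1% lay below 0 there and 21.9% above. Among the 27, 11 were called with the same sign and 0 with the other, where 11.2% of all genes were called. Both diets use the same estimate of the spread of a gene, so that share is not a matched background. With that diet's 12 libraries alone 130 genes were called, and overlap with the 27 was not tested there. With the scalings above, 23 of 27 and 21 of 25 had the same sign, and 9 and 8 were called.

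Genes called on both diets were Sucnr1, Tcf24, Ttc39a, Aldh1b1, Gpx7, Gm8116 and Gm20075, which were lower, and Mup21, Mup12, Celf2 and Dct, which were higher. The high-fat-diet call held in 3 of 12 fits that left out a library for Dct and in 4 for Gpx7 and Mup21. For the other genes named it held in all 12. Sucnr1 had 4.86, 4.2 and 4.36 TPM in LFPKO on the high-fat diet, 9.98, 18.4 and 21.2 TPM in LFKO, 16.7, 18.1 and 12.1 TPM in LPKO, and 8.86, 5 and 9.54 TPM in WT. Its double difference was -2.01 ± 0.39 on the regular diet and -2.56 ± 0.39 on the high-fat diet (limma adjusted p = 0.000644), although LFPKO lay just below WT on the high-fat diet rather than far below it. Aldh1b1 had -1.57 ± 0.24 on the regular diet and -1.22 ± 0.24 on the high-fat diet. Mup12 had 3.09 ± 0.54 on the regular diet and 2.90 ± 0.54 on the high-fat diet. Gm8116 was again listed at 8.26, 8.94 and 8.5 TPM in LFKO and at 0 in every other high-fat-diet library.

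The Cyp2c pair did not depart from 0 on the high-fat diet. Cyp2c69 was at most 0.855 TPM in every high-fat-diet library, and its double difference was -4.12 ± 0.51 on the regular diet and -0.14 ± 0.51 on the high-fat diet. The difference between diets was -3.98 ± 0.72 (limma adjusted p = 0.0454), 1 of 9 such calls among all genes (0.0853%) and the only one among the 27. Of the 9, 7 were higher (0.0663%) and 2 lower (0.019%) on the regular diet. The call for Cyp2c69 held in 7 of 24 fits that left out a library. For Cyp2c40 that difference was -4.72 (limma adjusted p = 0.148), and its high-fat-diet levels were at most 2.91 TPM. Errfi1 changed sign, at 1.76 ± 0.33 on the regular diet and -0.38 ± 0.33 on the high-fat diet (difference 2.14, limma adjusted p = 0.0791). Nat8 (2.93 and 0.35), Jun (-2.40 and -0.15) and Fgf21 (-1.85 and -0.61) were smaller on the high-fat diet, with limma adjusted p values of the difference of 0.101, 0.234 and 0.367.

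**Figure D5:**
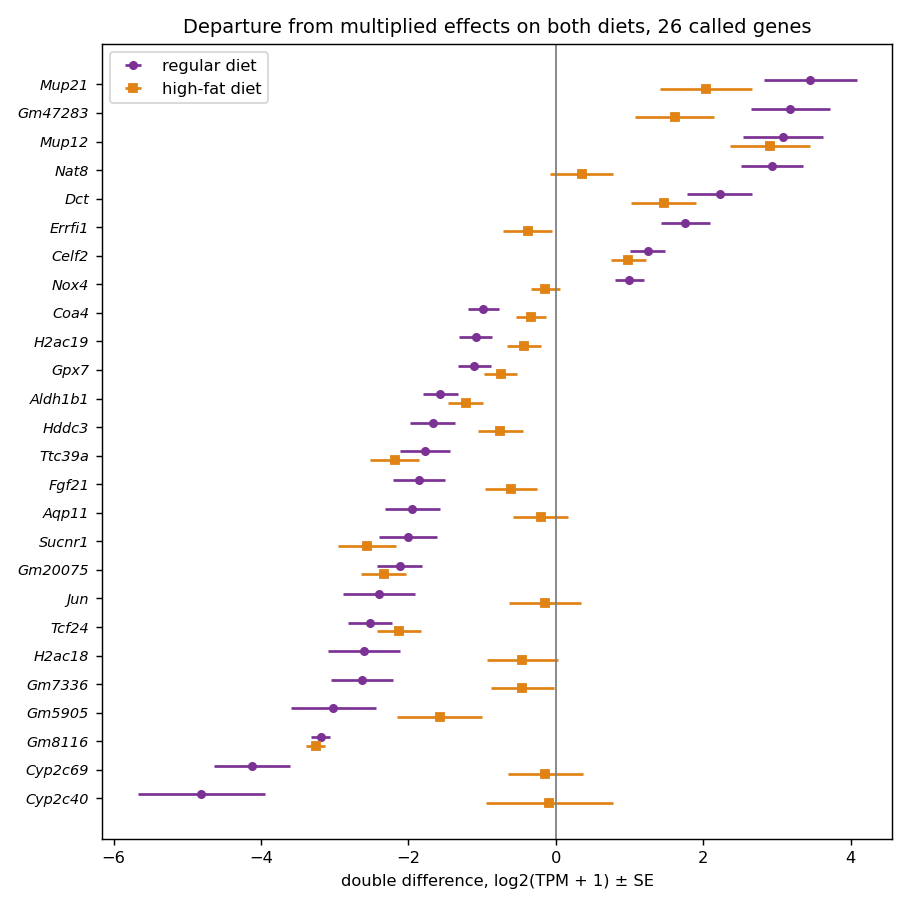
Double difference ± SE (horizontal axis, log2(TPM + 1)) of 26 called genes on the regular diet (purple circles) and on the high-fat diet (orange squares), ordered by the regular-diet value; Gm14586 is left out. Mup12, Celf2, Aldh1b1, Sucnr1, Tcf24 and Gm8116 lie close together on both diets, while Cyp2c40 and Cyp2c69 lie at -0.09 and -0.14 on the high-fat diet.

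Cholesterol synthesis showed a diet difference of the other kind. Of 26 genes on that list, 25 lay below 0 on the regular diet with a median of -0.42 and 0 called, and on the high-fat diet 23 were called lower with a median of -1.75. Among all tested genes 63.7% lay below 0 on the regular diet and 10.5% were called lower on the high-fat diet. The summed TPM of the list on the high-fat diet was 1160 to 1250 in LFPKO, 1210 to 1530 in LFKO, 1470 to 2480 in LPKO and 577 to 702 in WT. WT thus lay below every knockout, which cannot be told apart from a departure of both deletions from their product. Of the 9 genes whose double difference differed between diets, 4 belong to sterol synthesis. Cyp51, lanosterol demethylase, had 105, 89.8 and 90.7 TPM in LFPKO, 71, 63.4 and 63.9 TPM in LFKO, 96.2, 73 and 112 TPM in LPKO, and 42.5, 76.3 and 55.3 TPM in WT on the regular diet. On the high-fat diet Cyp51 averaged 39.1 TPM in LFPKO, 38.7 TPM in LFKO, 75.1 TPM in LPKO and 11.6 TPM in WT. Its double difference was -0.19 ± 0.26 on the regular diet and -2.58 ± 0.26 on the high-fat diet (difference 2.39 ± 0.37, limma adjusted p = 0.0154). Nsdhl, a later enzyme of the pathway, had -0.44 ± 0.27 and -2.91 ± 0.27 (difference 2.48 ± 0.39, limma adjusted p = 0.0154). Both were called in all 24 fits that left out a library. Idi1 and Fdps, enzymes of the isoprenoid steps, had differences of 2.67 ± 0.51 and 2.81 ± 0.51 (limma adjusted p = 0.0454 each), called in 5 of 24 such fits.

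The scale on which the deletions combine affected the higher genes more than the lower ones. When departures were taken from the sum of the changes in TPM rather than the product, 51 genes were called, 7 higher and 44 lower. Of the 8 genes higher on the log2 scale, 2, Nat8 and Gm47283, were also called on the TPM scale, and of the 19 lower genes 16 were. For Mup21 the sum of both changes gives a negative level, -182 TPM, in LFPKO, where 405 TPM was the mean. The sum was also negative for Nat8 (-3.98 TPM), Gm47283 (-40.3 TPM), Mup12 (-234 TPM), Celf2 (-1.44 TPM) and Dct (-1.18 TPM). Any observed level exceeds a negative sum, so for these genes a positive sign on the TPM scale was fixed in advance. For Celf2 and Dct the product in TPM + 1 gives negative levels in LFPKO, -0.286 and -0.42 TPM, which any observed level exceeds. All 27 genes kept their sign on both scales, which for the genes with a negative sum could not have come out otherwise.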

How the data were processed

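Liver RNA was sequenced from 24 mouse libraries, made with a stranded mRNA kit per the labels' protocols. Values are TPM per gene that the authors deposited in 1 table. Kallisto and the build GRCm38/mm10 are named in the submitters' processing notes; for the annotation and the kallisto version, no source used here names one. The columns summed to 956785 to 993524 TPM. TPM keeps no depth, so depth is unknown and no counting interval is given. One unnamed line, 0.0104 to 0.025% of a library, was left out.

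Values were taken as log2(TPM + 1), which understates changes of low genes, for 10551 genes with a mean of at least 1 TPM. A linear model with 8 groups over all 24 libraries was fitted with limma 3.58.1 in R 4.3.3, with moderated variances, a variance trend and Benjamini-Hochberg adjustment over all tested genes; called means an adjusted p under 0.05. Errors on log2 values are SE from this model, and tests are two-sided. The method was tested on simulated data. All 24 libraries share 1 estimate of the spread. Sequence tables and figures were made with Python 3.11.15, Biopython 1.88 and matplotlib 3.10.9.

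Named genes were those called, with a mean of at least 5 TPM in their highest regular-diet group and no predicted name, plus called list members and up to 4 further members per list with the smallest adjusted p. Decr2, Cyp2c29, Mup7, Elovl3, Cyp7b1, Nat8f1, Nat8f2, the predicted genes and the called genes under that level were named after their values were seen. The lists, like the double difference itself, were chosen with earlier results of these data known. Shared sequence is the share of a gene's 31-base windows in GENCODE M21 transcripts that occur in another gene. Promoters span 300 bases, and 19 of the 27 called genes had one in the RefSeq table. Motifs were searched on both strands. The half-site AGGTCA, which DR1 contains, occurred in 2 of 6 promoters called higher, 2 of 13 called lower and 12.9% of all. The STAT5 site TTCNNNGAA occurred in 1 of 6, 1 of 13 and 6.89%, and the C/EBP site TTGCGCAA in 0 of 19 and 0.315%.

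The fit was repeated with no filter or a minimum mean of 5 TPM, a pseudocount of 0.1, median-of-ratios scaling, rescaling without Mup and mitochondrial transcripts, additivity in untransformed TPM, the 12 libraries of a diet alone, no variance trend, replicate number as a block, and without each library in turn. No label ties replicate numbers across groups. One result on a pair of similar genes is not reported here.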

Additional observations from a re-analysis of the deposited data

Results flagged for a closer look

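Each of 9 genes had a double difference that differed between diets by limma's test of that difference (regular diet minus high-fat diet, log2, n = 3 libraries in each of 8 groups). It was lower on the regular diet for Cyp2c69 (-3.98) and for Inhbe, a subunit of the secreted factor activin E (-2.96). It was higher on the regular diet for the sterol synthesis genes Idi1 (2.67), Fdps (2.81), Nsdhl (2.48) and Cyp51 (2.39). It was also higher for the flavin monooxygenase Fmo2 (3.10), for Susd1 (1.88) and for the mitochondrial NAD kinase Nadk2 (1.52). Inhbe was the only one of the 9 with a double difference below 0 on the regular diet and above 0 on the high-fat diet, -1.33 ± 0.40 and 1.63 ± 0.40. Nadk2 showed the opposite signs, 0.72 ± 0.20 and -0.79 ± 0.20. The limma adjusted p was 0.0154 for Nsdhl and Cyp51 and 0.0454 for the other 7, whose calls held in 5 to 7 of 24 fits that left out 1 library.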

How the results depend on the processing

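On the regular diet 27 genes were called, 8 higher and 19 lower. The total was 16 with a pseudocount of 0.1 (8 higher, 8 lower), 14 with a mean of at least 5 TPM (8 lower), 51 for additivity in untransformed TPM (44 lower) and 74 with the 12 regular-diet libraries alone (22 higher, 52 lower). Without a filter 5 were higher, with median-of-ratios scaling 13 were higher, and without Mup and mitochondrial transcripts 11 were lower. Leaving out 1 library gave 8 to 27 calls, 2 to 14 higher and 6 to 19 lower. That rescaling without Mup and mitochondrial transcripts moved the median of all genes to 0.05, beside -0.07. On the high-fat diet, 1179 calls became 627 with median-of-ratios scaling, 620 without Mup and mitochondrial transcripts, 781 in untransformed TPM, 130 with that diet's 12 libraries alone, and 431 to 2611 when a library was left out. The 9 differences between diets became 4 without a filter, 17 without Mup and mitochondrial transcripts, 1 in untransformed TPM, 5 without a variance trend and 2 to 91 when a library was left out, with 91 without LPKO replicate 3 of the high-fat diet. The cause of these changes was not tested. One value changed sign, that of Eif4ebp3, which was 1.17 on the log2 scale and -49.59 TPM in untransformed TPM (limma adjusted p = 0.843), neither of them called.

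Replicate numbers were not shown to pair libraries: deviations of same-numbered libraries correlated at -0.15 to 0.18 (median 0.03), and 15 of 36 correlated best with their own number. With a replicate block 34 genes were called on the regular diet, 14 higher and 20 lower, and 18 between diets. With 3 libraries a group and a median SE of 0.22, small departures from the product were not detectable.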

Other observations

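Neighbouring lists add values without a call on the regular diet. Among all tested genes 63.7% lay below 0 with a median of -0.07. Of 35 genes of amino acid metabolism and the urea cycle, 26 lay below 0 with a median of -0.14. Of 27 genes of fatty acid synthesis, 22 lay below 0 with a median of -0.29, and 0 were called, against 1 called higher and 10 lower on the high-fat diet. The 26 acute-phase genes had a median of 0.06 and the 26 interferon-response genes one of -0.15, with 0 called in either list.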
